A study of Mus musculus with 9 samples.

Results

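Promoters of long noncoding RNA (lncRNA) genes that stand apart from protein-coding promoters were examined for 2 histone marks in primary oviductal muscle cells. A promoter was the window of 1 kb either side of an annotated transcript start of a GENCODE gene of type lincRNA or antisense on the 19 mouse autosomes, and it was kept when the start lay more than 5 kb from every protein-coding transcript start. This rule kept 8403 windows of 6219 genes, of 11210 windows of 8122 such genes, and it used no measured value. The members were 4587 lincRNA genes, which lie between other genes, and 1632 antisense genes, which are transcribed from the strand opposite another gene. The other 1903 lncRNA genes had no start outside the 5 kb limit. Of the members, 4973 had 1 window and 1246 had more, and 331 genes (5.32%) had a window that overlapped a window of another member gene.

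The cells came from WT mice aged 8–12 weeks on day 2 of pregnancy, and all 9 libraries shared this genotype and day. There were 3 libraries each for H3K27ac, H3K4me1 and the IgG control, made by ChIC-seq from 50000 cells each. In this assay an antibody directs micrococcal nuclease, fused to protein A, to cut the chromatin around its target. The oviducts were digested with enzymes, filtered and plated for some hours before use, so the libraries are of briefly cultured cells. Each H3K27ac and H3K4me1 library had 1 peak list, and each mark had 1 further list called on its 3 libraries together. The labels do not say whether the replicates came from separate animals, so p-values measure only the spread between these libraries.

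Many lncRNAs act in the nucleus, where they can scaffold proteins or influence genes nearby, and others are the precursors of microRNAs or small nucleolar RNAs. H3K4me1 and H3K27ac occur together at active enhancers. H3K27ac also marks active promoters, where the nucleosomes next to the start usually carry trimethylated rather than monomethylated H3K4. Vertebrate promoters fall into CpG-rich ones, often used in many tissues, and CpG-poor ones, which tend to be tissue-restricted.

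The promoter sequences of 8 genes show the range of the set. They run from 250 bases before the start through the first 50 transcribed bases on the gene's own strand, as read from the GRCm38 genome, and CG dinucleotides are in capitals. Malat1, an abundant nuclear RNA, lies at chr19:5802623-5802922 on the minus strand, and its start window had a peak in 3 lists. Mir17hg, the host of the miR-17-92 cluster, lies at chr14:115042629-115042928 on the plus strand and Lncpint, a p53-induced RNA, at chr6:31220439-31220738 on the minus strand. Dnm3os, the host of miR-199a and miR-214, lies at chr1:162217373-162217672 on the plus strand within the body of Dnm3. Pvt1, the neighbour of Myc, lies at chr15:62037736-62038035 on the plus strand. Gm26887 at chr8:84197618-84197917 on the minus strand stands for genes with H3K27ac only. Gm48397 at chr13:60068391-60068690 on the plus strand and Gm29040 at chr1:43302876-43303175 on the minus strand stand for genes with H3K4me1 only.
Malat1: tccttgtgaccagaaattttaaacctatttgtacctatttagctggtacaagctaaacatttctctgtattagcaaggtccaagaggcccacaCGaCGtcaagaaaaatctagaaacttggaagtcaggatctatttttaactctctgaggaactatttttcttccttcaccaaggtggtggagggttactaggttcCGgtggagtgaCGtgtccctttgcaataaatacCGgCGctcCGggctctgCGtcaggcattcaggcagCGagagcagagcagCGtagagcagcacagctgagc
Mir17hg: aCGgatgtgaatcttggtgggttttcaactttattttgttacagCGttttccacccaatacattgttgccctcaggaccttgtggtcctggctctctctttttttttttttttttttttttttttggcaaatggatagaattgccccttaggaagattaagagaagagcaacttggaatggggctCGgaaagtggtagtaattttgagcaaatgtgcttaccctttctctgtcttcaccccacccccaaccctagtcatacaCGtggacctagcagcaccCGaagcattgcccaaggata
Gm26887: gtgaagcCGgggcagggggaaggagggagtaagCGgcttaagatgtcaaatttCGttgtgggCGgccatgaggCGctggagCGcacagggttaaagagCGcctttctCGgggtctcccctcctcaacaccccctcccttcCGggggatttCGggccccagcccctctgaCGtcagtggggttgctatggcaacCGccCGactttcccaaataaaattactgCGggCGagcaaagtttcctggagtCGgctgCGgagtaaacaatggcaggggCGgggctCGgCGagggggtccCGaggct
Lncpint: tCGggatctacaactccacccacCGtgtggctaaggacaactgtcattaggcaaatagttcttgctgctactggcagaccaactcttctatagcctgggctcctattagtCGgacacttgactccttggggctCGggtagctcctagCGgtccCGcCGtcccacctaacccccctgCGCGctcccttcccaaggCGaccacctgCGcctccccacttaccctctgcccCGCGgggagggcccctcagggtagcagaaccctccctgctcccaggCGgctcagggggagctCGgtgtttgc
Dnm3os: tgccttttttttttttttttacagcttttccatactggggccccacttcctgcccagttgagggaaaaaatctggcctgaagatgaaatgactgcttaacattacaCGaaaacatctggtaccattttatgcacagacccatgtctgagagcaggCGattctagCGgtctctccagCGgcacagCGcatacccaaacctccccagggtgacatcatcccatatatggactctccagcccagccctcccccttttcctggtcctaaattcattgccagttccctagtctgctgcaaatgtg
Pvt1: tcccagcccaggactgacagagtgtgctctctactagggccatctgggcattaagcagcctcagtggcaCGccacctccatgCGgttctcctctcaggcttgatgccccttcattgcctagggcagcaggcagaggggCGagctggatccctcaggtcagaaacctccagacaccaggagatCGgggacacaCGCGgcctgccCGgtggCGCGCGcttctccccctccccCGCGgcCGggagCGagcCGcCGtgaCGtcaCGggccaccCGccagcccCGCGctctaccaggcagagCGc
Gm48397: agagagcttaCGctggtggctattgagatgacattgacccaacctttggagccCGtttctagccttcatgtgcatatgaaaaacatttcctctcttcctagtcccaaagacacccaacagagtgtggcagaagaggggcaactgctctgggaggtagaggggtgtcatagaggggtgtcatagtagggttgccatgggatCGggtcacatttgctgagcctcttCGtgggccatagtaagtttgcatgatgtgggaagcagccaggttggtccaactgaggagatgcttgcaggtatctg
Gm29040: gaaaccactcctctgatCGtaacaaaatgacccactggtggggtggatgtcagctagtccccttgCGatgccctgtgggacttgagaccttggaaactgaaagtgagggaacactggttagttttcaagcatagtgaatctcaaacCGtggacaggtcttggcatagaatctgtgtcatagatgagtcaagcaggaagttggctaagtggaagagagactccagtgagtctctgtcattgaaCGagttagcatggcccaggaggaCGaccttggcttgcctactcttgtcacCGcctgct
The 300 bases of Gm26887 and Pvt1 held 21 and 22 CG dinucleotides, against 4 in Gm48397 and 6 in Gm29040. Malat1 held 10, Mir17hg 5, Lncpint 15 and Dnm3os 5.

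In each list fewer lncRNA promoters than protein-coding promoters carried a peak, and the order of the marks was opposite in these sets. Genes with at least 1 peak over at least 1 window were called marked. Of the 6219 lncRNA genes, H3K27ac marked 19.8%, 16.7% and 15% in replicates 1, 2 and 3, averaging 17.2% ± 2.45 (SD, n = 3). For H3K4me1 the shares were 23.7%, 20.8% and 20.3%, averaging 21.6% ± 1.86 (SD, n = 3). Every H3K4me1 list thus lay above every H3K27ac list. The shares depended on the settings. With a −log10 p-value limit of 1.3 on the peaks the means were 4.74% for H3K27ac and 5.95% for H3K4me1. With 50% of a window covered they were 5.80% and 7.62%. The comparison set was 17493 isolated protein-coding genes, whose starts lay over 5 kb from the start of any other protein-coding gene. Of these, H3K27ac marked 50.5%, 49% and 48.0%, and H3K4me1 43.1%, 39.3% and 39.0%. Here every H3K27ac list lay above every H3K4me1 list.

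**Figure D1:**
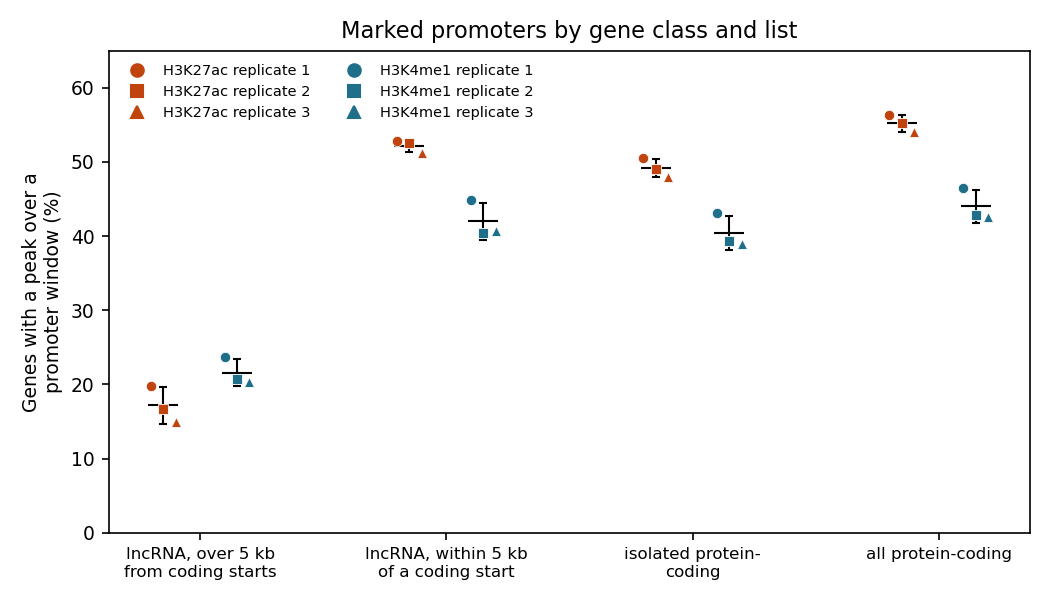
Percent of genes with a peak over a promoter window, for 4 gene classes. Each symbol is 1 replicate list, and the bar and whiskers give the mean and SD of 3 lists. H3K27ac lies below H3K4me1 for lncRNA genes over 5 kb from coding starts (means 17.2% and 21.6%) and above it for the other classes.

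The difference between the marks at lncRNA genes was −4.45 percentage points (exact permutation test, two-sided, p = 0.100). This is the smallest p that 3 lists against 3 allow, and after Benjamini-Hochberg adjustment over 10 tests it was 0.143. The difference kept its sign under the alternatives, but it was −1.21 points (p = 0.200 by the exact permutation test) with a −log10 p-value limit of 1.3 on the peaks. It was −1.81 points (p = 0.100) with 50% of a window covered, −2.02 (p = 0.200) with the start base covered and −2.69 (p = 0.200) with windows of 250 bp, by the same exact test. The lists of the marks thus overlapped in 3 of these 4 settings. They also overlapped with windows of 3 kb (−5.40 points) and with windows outside coding gene bodies (−3.67 points), each at an exact permutation p of 0.30. The share at lncRNA genes divided by that at isolated coding genes was 0.393, 0.340 and 0.313 for H3K27ac. It was 0.551, 0.528 and 0.521 for H3K4me1, so the ratios of the marks did not overlap. Their means were 0.348 ± 0.0407 and 0.533 ± 0.0155 (SD, n = 3; exact permutation test, p = 0.100, adjusted p = 0.143). The difference of −0.185 kept its sign and was larger with stricter overlap, at −0.347 with 50% of a window covered (ratios 0.176 and 0.524) and −0.344 with the start base covered (0.219 and 0.563). With the −log10 p-value limit the ratios were 0.136 and 0.392. Over all 6 lists the lncRNA share was lower by a mean of 25.4 percentage points (exact sign-flip test over 6 lists, two-sided, p = 0.031, the smallest possible, adjusted p = 0.104). Some of the 6 lists share an IgG library, so here and in the later sign-flip tests they are not fully independent.

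The depth and extent of the lists varied. The H3K27ac libraries held 42040809, 40551842 and 40723101 fragments in replicates 1, 2 and 3, and the H3K4me1 libraries 41891318, 78891920 and 64063996. The part of this depth in the differences between the marks was not tested. The controls held 3110985 to 3713369 fragments, and a replicate list held 93684 to 152889 peaks. H3K27ac peaks covered 5.72%, 4.07% and 3.62% of the autosomes in replicates 1, 2 and 3, and H3K4me1 peaks 5.51%, 5.38% and 5.16%. H3K27ac replicate 1, the only replicate list called against IgG replicate 1, had both the widest coverage and the highest H3K27ac share of lncRNA genes. Within the lists called against IgG replicate 2 the difference between the marks at lncRNA genes was −5.60 points, and within those called against IgG replicate 3 it was −5.34. Without H3K27ac replicate 1 the difference between the marks was −5.79 points and the difference of the ratios −0.207. In the pooled lists 15.5% of lncRNA genes carried H3K27ac and 26.6% H3K4me1, against 51.1% and 53.0% of isolated coding genes. The opposite order at coding genes was thus not seen in the pooled lists, whereas the difference of the ratios was −0.199. Isolated coding genes had 2.43 windows per gene and lncRNA genes 1.35. With only the most upstream window of each gene, an alternative chosen after seeing the data, the ratios were 0.354 for H3K27ac and 0.584 for H3K4me1.

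lncRNA genes close to coding starts had shares near those of coding genes. Among lncRNA genes with a start within 5 kb of a coding start, H3K27ac marked 52.8%, 52.5% and 51.2%, and H3K4me1 44.9%, 40.4% and 40.7%. Those windows can hold peaks of the coding promoter itself. At the members this was rare. Of the 964 lncRNA genes marked in the pooled H3K27ac list, 18 (1.87%) lay under a peak that also reached a coding promoter window, and of the 1656 marked in the pooled H3K4me1 list, 11 (0.664%) did. The lincRNA and antisense members were alike in range. H3K27ac marked 17.5% ± 2.49 of lincRNA and 16.3% ± 2.33 of antisense genes, and H3K4me1 21.2% ± 1.83 and 22.7% ± 1.96 (SD, n = 3).

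Calls repeated in at least 2 of the 3 lists of a mark gave the promoter states. H3K27ac was present at 888 lncRNA genes (14.3%), where 32.3% of all 51229 annotated autosomal genes carried it, and H3K4me1 at 1283 (20.6%), against 29.6% of all genes. Both marks were present at 685 lncRNA genes (11.0%), against 24.2% of all genes and 35.7% of isolated coding genes. The count of 685 became 317 with all 3 lists required, 120 with a −log10 p-value limit of 1.3 and 1123 with windows of 3 kb. H3K4me1 without H3K27ac was found at 598 lncRNA genes (9.62%), above the 5.43% of all genes and the 5.32% of isolated coding genes. H3K27ac without H3K4me1 was found at 203 (3.26%), below the 8.09% of all genes and the 12.8% of isolated coding genes. Neither mark was called at 4733 lncRNA genes (76.1%), against 62.3% of all genes and 46.1% of isolated coding genes. No peak in any of the 6 lists was found at 3705 (59.6%), against 50.5% and 35.9%. The most uniform states pointed the same way. H3K4me1 in all 3 lists with H3K27ac in none occurred at 112 lncRNA genes (1.80%) and 103 isolated coding genes (0.589%), while H3K27ac in all 3 with H3K4me1 in none occurred at 26 (0.418%) and 609 (3.48%). These counts are descriptions without a test.

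**Figure D2:**
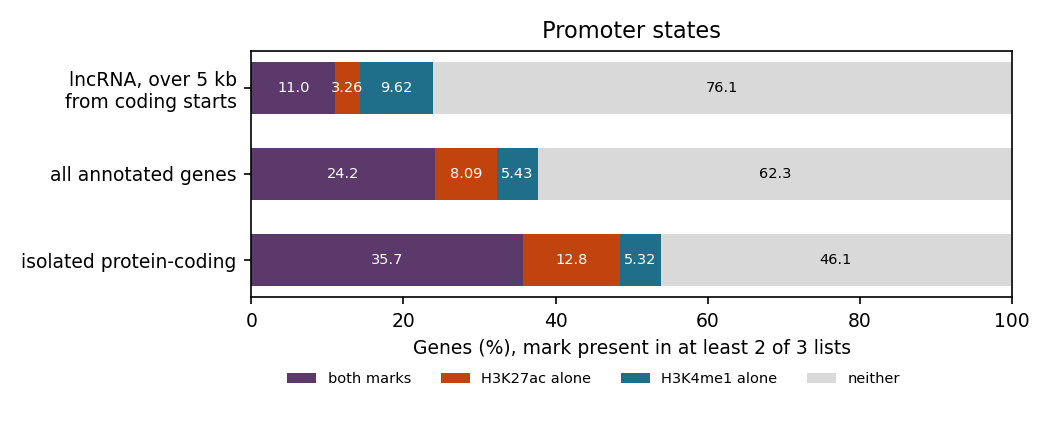
Percent of genes in 4 promoter states, with a mark counted as present when at least 2 of its 3 lists had a peak over a window. Both marks cover 11.0% of lncRNA genes and 35.7% of isolated coding genes, whereas H3K4me1 alone covers 9.62% and 5.32%.

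Replicates repeated each other less at lncRNA promoters. Of the 1852 lncRNA genes with H3K27ac in any list, 462 (24.9%) had it in all 3 and 964 (52.1%) in 1 only. For H3K4me1, 755 of 1995 genes (37.8%) had it in all 3. At isolated coding genes the shares in all 3 lists were 68.8% for H3K27ac and 48.0% for H3K4me1. The control library moved with this overlap. H3K27ac replicate 2 shared 577 of its 1036 lncRNA genes (55.7%) with H3K27ac replicate 3, which was 61.8% of the 933 genes of replicate 3. It shared 803 (77.5%) with H3K4me1 replicate 1, called against the same IgG library, or 54.4% of the 1477 genes of that list. H3K27ac replicate 3 shared 680 (72.9%) with H3K4me1 replicate 3, its partner in IgG library, or 53.8% of 1265 genes. Pairs of the 2 marks without a common IgG library shared less. H3K27ac replicate 2 shared 60.3% of its genes with H3K4me1 replicate 3. H3K27ac replicate 3 shared 65.2% and 63.5% with H3K4me1 replicates 1 and 2. H3K27ac replicate 1 shared 57.3%, 54.7% and 53.4% with H3K4me1 replicates 1, 2 and 3. The part of the common IgG library in these overlaps, and so in the count of genes with both marks, was not tested.

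The strongest peaks over lncRNA genes ranked lower within their lists than those over isolated coding genes, though above the median of all peaks. The latter genes had more windows from which to take a strongest peak. The deposited fold enrichment of the strongest peak over a gene was ranked as a percentile among all peaks of its list. This fold is the pileup plus 1 over the local background plus 1, and with a mean coverage below 1 fragment per base it understates the ratio of pileup to background. For H3K27ac the median percentile over marked lncRNA genes was 77.3, 71.2 and 71.0 in replicates 1, 2 and 3, against 94.3, 92.2 and 91.9 at isolated coding genes. For H3K4me1 it was 66.0, 66.7 and 66.3, against 78.1, 76.5 and 75.6. The gap was wider for H3K27ac in every list. At least 1 peak over the gene, not always the strongest, had a −log10 p-value that reached 1.3 at 27.6% ± 0.529 of the lncRNA genes marked by H3K27ac. The share was 70.9% ± 0.723 of the isolated coding genes marked by H3K27ac (SD, n = 3). For H3K4me1 the shares were 27.7% ± 3.59 and 37.5% ± 2.54 (SD, n = 3). The H3K27ac peaks over lncRNA promoters had a median width of 860 bp ± 30.4, against 1764 bp ± 142 at isolated coding promoters. The H3K4me1 widths were 1026 bp ± 102 and 1106 bp ± 99.1.

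The marks also differed in shape around the starts. Coverage here is the share of starts at which a given position, oriented by strand, lay inside a peak. At lncRNA starts both marks were highest within 200 bp of the start. H3K27ac covered 10.1%, 8.70% and 7.40% of the start bases and H3K4me1 10.6%, 9.85% and 8.95%. At 2 kb downstream H3K27ac covered 6.82%, 5.65% and 4.72%, and H3K4me1 7.57%, 7.03% and 6.80%. At isolated coding starts H3K27ac was also highest at 200 bp, where it reached 34.7–37.5%. H3K4me1 instead dipped around the coding start, where it covered 12.4–16.0% of the start bases, and was highest at 1400 bp downstream in replicate 1 and 1600 bp in replicates 2 and 3, at 20.6–21.5%. The H3K4me1 dip around coding starts was not seen at lncRNA starts as a group.

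**Figure D3:**
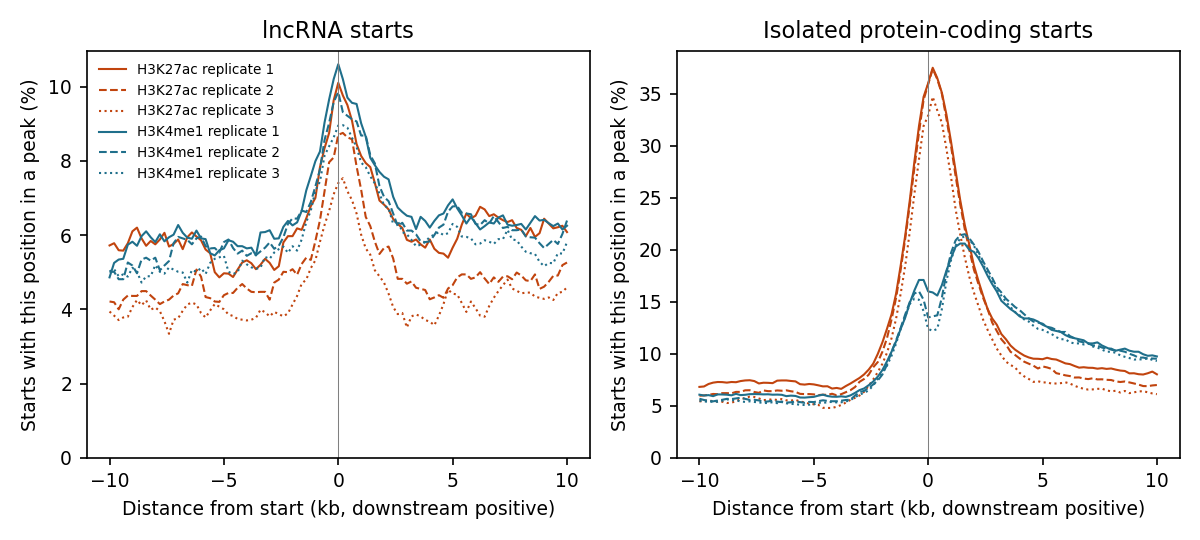
Percent of starts at which a position lies in a peak (y axis, with a different scale in each panel) against distance from the start in kb (x axis), for lncRNA starts (left) and isolated protein-coding starts (right). Each line is 1 replicate list. At lncRNA starts both marks rise to a single maximum of 7.53–10.6%, whereas at coding starts H3K4me1 dips around the start and is highest downstream.

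The coverage at the lncRNA start over that 2 kb downstream was 1.48, 1.54 and 1.57 for H3K27ac and 1.40, 1.40 and 1.32 for H3K4me1. The difference was 0.156 (exact permutation test, p = 0.100, the smallest possible, adjusted p = 0.143). It was 0.387 with the −log10 p-value limit, 0.220 with a pileup limit and 0.108 with 1 start per gene. The same ratio at isolated coding starts averaged 2.00 ± 0.0659 over the H3K27ac lists, and over the H3K4me1 lists 0.692 ± 0.104 (SD, n = 3). Every H3K4me1 list was above 1 at lncRNA starts and below 1 at coding starts. Relative to the mean coverage 8 to 10 kb away, lncRNA starts had 1.78 ± 0.0982 times as much H3K27ac and 1.75 ± 0.0408 times as much H3K4me1 (SD, n = 3). These ratios overlapped (difference 0.0275, exact permutation p = 0.900), and their difference depended on the setting. It was −0.137 with 1 start per gene (exact permutation p = 0.100) and −0.0251 without H3K27ac replicate 2. It was 0.438 when weak peaks were left out by −log10 p-value and 0.180 when they were left out by pileup, each at an exact permutation p of 0.100. At coding starts they were 5.21 ± 0.489 and 1.79 ± 0.173 (SD, n = 3).

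Among lncRNA promoters, CpG content set apart a small group with a high share of both marks. A window was called CpG-rich when its observed over expected CpG was at least 0.6 with a GC content above 50%. Only 131 lncRNA windows (1.56%), of 84 genes, met this, against 26.7% of isolated coding windows. H3K27ac marked 52.7%, 51.9% and 55.7% of the CpG-rich lncRNA windows and 19.7%, 16.8% and 14.8% of the 8272 CpG-poor ones. H3K4me1 marked 44.3%, 38.9% and 45.0%, against 23.4%, 20.6% and 19.9%. The CpG-rich share was higher in 6 of 6 lists, by a mean of 28.9 percentage points (exact sign-flip test, p = 0.031, adjusted p = 0.104). The gap was 36.3 points for H3K27ac and 21.5 for H3K4me1, and the difference of 14.9 had an exact permutation p of 0.100, the smallest possible. CpG-rich lncRNA windows thus had more H3K27ac than H3K4me1 in each list, and CpG-poor ones had the reverse order of means.

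Within each CpG class lncRNA windows were marked less often than coding windows. At CpG-rich isolated coding windows H3K27ac marked 80.9% ± 0.654 and H3K4me1 55.2% ± 2.11, against 53.4% ± 2.02 and 42.7% ± 3.33 at CpG-rich lncRNA windows (SD, n = 3). At CpG-poor coding windows the shares were 37.0% ± 1.59 and 32.0% ± 1.87, against 17.1% ± 2.48 and 21.3% ± 1.88 at CpG-poor lncRNA windows (SD, n = 3). Of the 84 genes with a CpG-rich window, 40 (47.6%) carried H3K27ac and 36 (42.9%) carried H3K4me1 in at least 2 lists, against 14.3% and 20.6% of all members. No list had a peak at 29 (34.5%, against 59.6% of all members). Among these were Mir124-2hg and Mir9-3hg, hosts of microRNAs of the nervous system.

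The name of a RIKEN gene records the cDNA library in which it was found. The 684 lncRNA genes with prefixes of testis libraries were marked less often than the 510 other RIKEN lncRNA genes. H3K27ac marked 16.4%, 13.3% and 11.0% of the testis clones, against 30.0%, 29.6% and 24.1% of the others. H3K4me1 marked 19.2%, 17.1% and 15.1%, against 35.1%, 32.7% and 32.9%. The testis clones were lower in 6 of 6 lists, by a mean of 15.4 points (exact sign-flip test, p = 0.031, adjusted p = 0.104). With a −log10 p-value limit of 1.3 on the peaks the mean difference was −8.42 points. Over all lncRNA genes the mean shares were 17.2% for H3K27ac and 21.6% for H3K4me1. The other RIKEN genes, at 27.9% and 33.6%, lay farther from these than the testis clones did, at 13.5% and 17.1%. The testis clones also had fewer windows per gene, 1.55 against 1.75, and fewer genes with a CpG-rich window, 0.731% against 3.53%. They lay farther from coding starts, with a median of 70.1 kb against 49.1 kb. The part of these features in the difference was not tested.

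**Figure D4:**
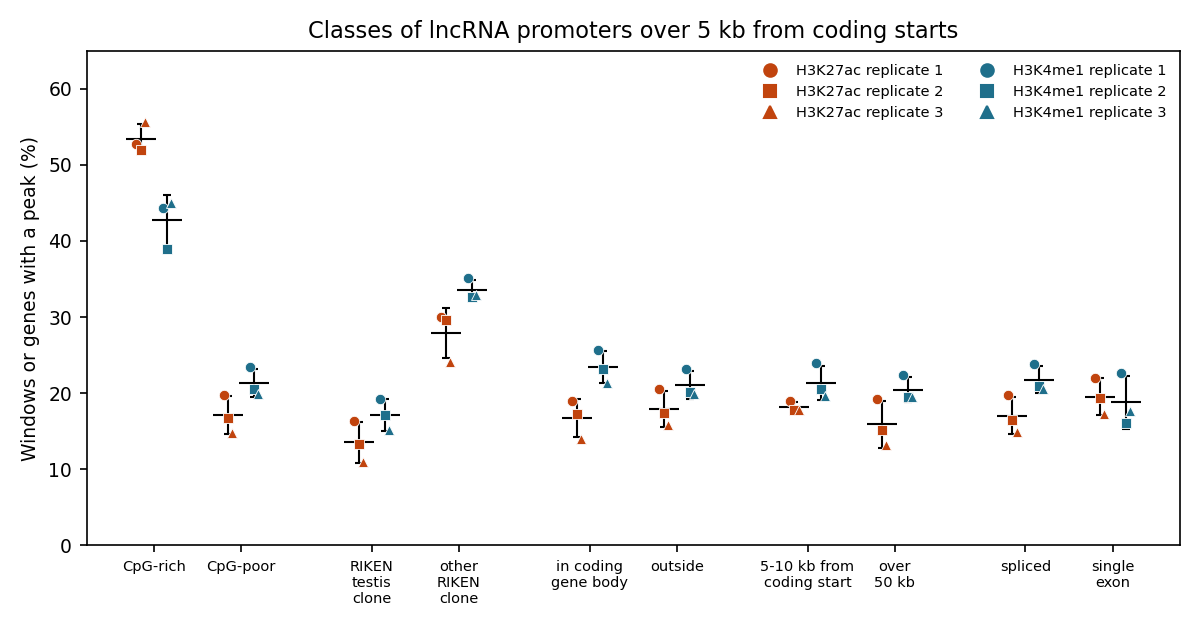
Percent of lncRNA windows or genes with a peak (y axis) in 5 pairs of classes. Each symbol is 1 replicate list, and the bar and whiskers give the mean and SD of 3 lists. The CpG-rich and other RIKEN classes lie above their partners in all 6 lists, while the remaining pairs differ by less than 3 percentage points on average in each mark.

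The shares were lowest far from coding genes, and the test of near against far windows did not pass. Windows 5 to 10 kb from a coding start were marked at 18.2% ± 0.721 (H3K27ac) and 21.3% ± 2.25 (H3K4me1), and windows over 50 kb away at 15.9% ± 3.12 and 20.5% ± 1.63 (SD, n = 3). The mean difference of 1.54 points was positive in 5 of 6 lists (exact sign-flip p = 0.0938, adjusted p = 0.143). It was 2.38 points when peaks under a −log10 p-value of 1.3 were left out, and 2.84 when peaks under 5 times the mean coverage were left out, each at an exact p of 0.031. The share was not highest next to coding starts. H3K4me1 marked 22.7% ± 1.90 of windows at 10 to 25 kb, 23.9% ± 2.42 at 25 to 50 kb and 19.5% ± 1.65 beyond 100 kb, and H3K27ac 20.2% ± 1.34, 19.8% ± 2.53 and 15% ± 3.5 (SD, n = 3). Across chromosomes the share of lncRNA genes with H3K27ac in at least 2 lists ran from 7.81% on chromosome 8 to 21.9% on chromosome 17.

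A start inside the body of a coding gene, found for 1744 windows, had no common direction. The share was lower inside than outside for H3K27ac in 3 of 3 lists, with a mean difference of −1.16 points, and higher for H3K4me1 in 3 of 3, at 2.30 points. Over all lists the mean difference was 0.570 (exact sign-flip p = 0.562). Spliced genes (5946) and single-exon genes (273) likewise differed by −2.48 points for H3K27ac and 2.94 points for H3K4me1, with a mean of 0.230 over all lists (exact sign-flip p = 0.844).

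The nearest coding gene was more often marked beside a marked lncRNA gene. Where the lncRNA gene carried both marks, 77.1% of nearest coding genes carried H3K27ac and 64.4% H3K4me1 in at least 2 lists. The shares were 77.8% and 66.0% beside lncRNA genes with H3K27ac alone and 76.1% and 66.2% beside those with H3K4me1 alone. Beside those with neither they were 57.8% and 51.9%. Of all protein-coding genes, 55.0% carried H3K27ac and 44.6% H3K4me1. Genes with both marks had more than 1 window in 33.3% of cases, and genes with neither in 17.4%. These are descriptions over genes that share neighbourhoods.

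GC boxes were rarer and AP-1 motifs more frequent at lncRNA promoters than at coding ones. The windows of 300 bases around the starts were searched on both strands, without regard to overlap between motifs. GGGCGG, the GC box bound by Sp1, occurred in 9.78% of lncRNA promoters, 40.9% of isolated coding promoters and 38.8% of all coding and lncRNA promoters. It occurred in 16.0% of lncRNA promoters of genes with both marks, 14% with H3K27ac alone, 7.53% with H3K4me1 alone and 8.63% with neither. A match is a description of the letters only. TATAAA occurred in 16.1% of lncRNA promoters and 11.8% of all. TGANTCA, the motif of AP-1, occurred in 10.6% of lncRNA promoters and 7.03% of all. By state it occurred in 13.6% with both marks, 12.1% with H3K4me1 alone, 6.37% with H3K27ac alone and 10.1% with neither. CATTCC, bound by TEAD factors, occurred in 17.9% of lncRNA promoters and 13.7% of all, and CCAAT in 36.9% and 35.6%. In isolated coding promoters of genes with neither mark, AP-1 motifs occurred in 9.11%, CATTCC in 15.5%, TATAAA in 18.1% and GC boxes in 22.4%. The median GC content was 45.6% in lncRNA windows and 50.9% in isolated coding windows, and its part in these shares was not tested. The CArG box, bound by the muscle regulator SRF, occurred in 1.89% of lncRNA promoters and 1.34% of all, and 1 was found in the promoter of Dnm3os. The promoter of Gm26887 held 3 GC boxes, and that of Gm29040 1 AP-1 motif.

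The cell type was checked at coding promoters of marker genes, with a mark in at least 2 of 3 lists. H3K27ac was present at 5 of 10 smooth muscle markers, 10 of 10 stromal, 0 of 10 epithelial, 3 of 10 blood and 3 of 10 endothelial markers, where 55.0% of all protein-coding genes carried it. H3K4me1 was present at 6, 9, 3, 0 and 3 of 10, against 44.6% of all protein-coding genes. The smooth muscle counts were thus near the share of coding genes in general. Acta2, Tagln, Des, Smtn and Synpo2 carried H3K27ac, and Myh11, Cnn1, Myocd, Actg2 and Lmod1 did not. All 10 stromal markers, among them Pdgfra, Col1a1 and Dcn of fibroblasts, carried it. The 3 blood markers with H3K27ac were Ptprc, Tyrobp and Cd68. The part of stromal and blood cells in the lncRNA results was not tested.

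The lncRNA genes with the strongest H3K27ac were mostly little-studied loci. Values are the deposited fold enrichment, with its added 1, of the strongest peak over a window. 2810405F17Rik (chromosome 4, 21.4 kb from Cela3a) led the rank with 2.99, 2.81 and 2.23 in H3K27ac replicates 1, 2 and 3, and 2.02, 1.84 and 1.84 in H3K4me1. Dnm3os (chromosome 1) had 2.77, 2.59 and 2.45 in H3K27ac and 2.39, 2.13 and 2.02 in H3K4me1, which put it at percentile 96.5 or higher among the peaks of every list. Lncpint (chromosome 6) had 2.74, 2.49 and 2.40 in H3K27ac and 1.95, 2.08 and 2.08 in H3K4me1. All 3 genes carried each mark in each replicate. The same held for Gm44734, 67.2 kb from Chd2, Gm14321, 88.6 kb from Cebpb, and 2410080I02Rik, 6.33 kb from Klf9, whose mean H3K27ac fold enrichments were 2.55 ± 0.235, 2.50 ± 0.106 and 2.39 ± 0.240 (SD, n = 3).

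Others of the 12 strongest carried H3K27ac with H3K4me1 in fewer than 3 lists. Gm26887 on chromosome 8, 21.1 kb from Nanos3, had 2.69, 2.71 and 2.75 in H3K27ac and no H3K4me1 peak. 1700031P21Rik, 86.2 kb from Arhgap5, had 2.48, 2.59 and 2.28, and Gm11205, 44.1 kb from Rab11fip4, had 2.46, 2.87 and 2.01, both without H3K4me1. 1700031P21Rik bears a testis clone name. C920006O11Rik, 6.86 kb from Gsta4, had 2.58, 2.32 and 2.60 in H3K27ac and a H3K4me1 peak in 2 lists. Lockd, an RNA downstream of Cdkn1b whose locus acts as an enhancer of that gene, had 2.47, 2.54 and 2.42. Gm44238, which starts beside Lockd on the other strand, lay under the same H3K27ac peaks and is not a separate observation. Gm36445 completed the 5 highest genes with H3K27ac and no H3K4me1, at 2.46, 1.88 and 2.48.

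The 8 strongest genes with H3K4me1 in every replicate and no H3K27ac lay 9.41 to 121 kb from coding starts, where the median of genes with H3K4me1 alone was 56.1 kb. Gm48397 and Gm48396 lay 108 and 119 kb from Gas1, a growth arrest gene of mesenchyme. Gm48397 had H3K4me1 fold enrichments of 2.27, 2.2 and 1.78, and Gm48396 had 2.44, 2.14 and 1.95. Gm29040, 106 kb from Fhl2, had 2.43, 2.13 and 1.65. The third replicate was the lowest for each of these 3 genes. Gm5535, Gm44955, Gm45121 and 3110009F21Rik lay 62.6, 60.6, 18 and 121 kb from Snx5, Irs2, Inpp5f and Dio3, with means of 2.09 ± 0.0929, 2.00 ± 0.0839, 1.98 ± 0.254 and 1.99 ± 0.101 (SD, n = 3). A530095I07Rik, an antisense gene within Tent4a and 9.41 kb from its start, had 2.04, 2.11 and 2.04.

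The widest H3K27ac peaks over lncRNA promoters lay at 2 loci. A pooled peak of 45763 bp on chromosome 7 covered starts of Gm29683, Gm44946 and Gm44948 together with the promoter of Nr2f2, which encodes the nuclear receptor COUP-TFII of mesenchymal cells. Gm44946 had a H3K4me1 peak in all 3 replicates, and the other two in 1. A pooled peak of 35582 bp on chromosome 6 covered starts of 2310001H17Rik and Gm47861, 36.6 and 37.1 kb from Cd69, and reached no coding promoter. These genes shared H3K27ac peaks with fold enrichments of 2.41, 2.32 and 2.53, and both carried H3K4me1 in each replicate.

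Among known lncRNAs, most of the nuclear and abundant ones carried H3K27ac. Of 8 members of that list, 7 carried H3K27ac and 5 carried H3K4me1 in at least 2 lists, where 14.3% and 20.6% of all members did. The known genes had more windows in which a peak could count, against a mean of 1.35. They had 2 to 14 in this list and 2 to 8 in the list of hosts of small nucleolar RNAs. At the most upstream window alone, a comparison chosen after seeing the data, 7 and 5 of these 8 genes carried the marks, against 13.3% and 19.3% of all members. At that window the counts were 5 and 3 of 5 genes listed as hosts of small nucleolar RNAs and 3 and 1 of 6 imprinted genes. They were 6 and 6 of 13 hosts of microRNAs and 4 and 5 of 7 mesenchymal genes. They were 1 and 0 of 9 neural, 2 and 1 of 4 blood and 2 and 2 of 20 pluripotency genes. Malat1, on chromosome 19, had H3K27ac fold enrichments of 2.2, 2.33 and 2.40 and a H3K4me1 peak in replicate 2 only, at 1.93. Neat1, the scaffold of paraspeckles, had 2.54, 2.33 and 2.38 and a H3K4me1 peak in replicate 3 only, at 1.70. Pvt1 (chromosome 15) had 2.21, 2.30 and 2.58 in H3K27ac and 2.31, 2.04 and 2.23 in H3K4me1. Trp53cor1, the lincRNA-p21 beside Cdkn1a, lacked a H3K27ac peak in replicate 2 and a H3K4me1 peak in replicate 2. 2900097C17Rik, the mouse NORAD, lacked both in replicate 1. Miat, an RNA of neurons and heart, had no peak in any list.

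Members in the list of hosts of small nucleolar RNAs carried both marks in at least 2 lists. Snhg7os is in that list by its name prefix, but it is annotated as an antisense gene and named for the strand opposite Snhg7. All 5 members, of 18 annotated autosomal genes of that list, had H3K27ac in all 3 replicates and H3K4me1 in at least 2, where 14.3% and 20.6% of all members carried these marks in at least 2 lists. Snhg6 (chromosome 1) had 2.06, 2.05 and 2.10 in H3K27ac and 1.80, 1.68 and 1.90 in H3K4me1, and Snhg7os had 2.26, 2.36 and 2.07 and 2.11, 2.22 and 2.00. Epb41l4aos had a mean of 2.31 ± 0.333 in H3K27ac and 1.58 ± 0.119 in H3K4me1 (SD, n = 3). Snhg12, whose most upstream start lay 5.24 kb from Rab42 and thus just inside the distance limit, and Snhg20 lacked H3K4me1 in replicate 3.

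**Figure D5:**
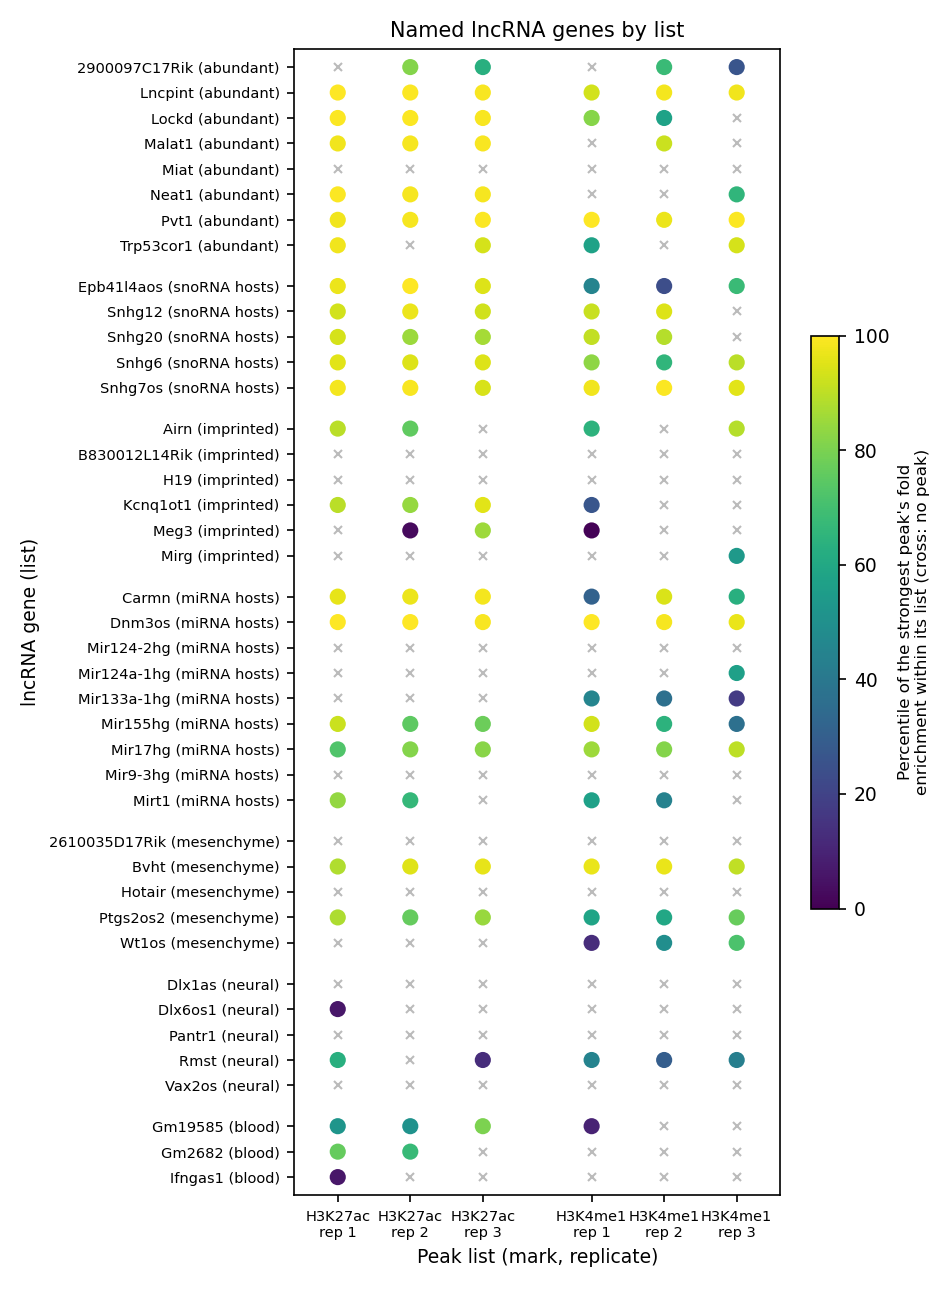
Strongest peak over each of 41 known lncRNA genes (rows, with the list that named each) in the 6 replicate lists (columns). Colour gives the percentile of its fold enrichment among all peaks of the list, and a cross marks no peak. Dnm3os, Lncpint and Pvt1 are high in every list, Rmst has a peak in 5 of 6, and H19, Hotair and Pantr1 have crosses in all 6.

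Imprinted lncRNAs, expressed from 1 parental allele, were marked in part. Of 6 members, 3 carried H3K27ac (50.0%, against 14.3% of all members) and 1 carried H3K4me1 (16.7%, against 20.6%) in at least 2 lists. Kcnq1ot1 had H3K27ac at 1.84, 1.78 and 2.13 and a single H3K4me1 peak of 1.49. Airn, within Igf2r, had H3K27ac at 1.84 and 1.66 in replicates 1 and 2 and none in replicate 3, and H3K4me1 at 1.66 and 1.89 in replicates 1 and 3. Meg3 had H3K27ac at 1.40 and 1.82 in replicates 2 and 3 and H3K4me1 at 1.37 in replicate 1, and the peaks of 1.40 and 1.37 stood at percentiles 2.69 and 0.668 of their lists. H19, with 7 windows, had no peak in any list, nor did B830012L14Rik, and Mirg had 1 H3K4me1 peak of 1.64.

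Hosts of microRNAs ranged from both marks in every list to none. Of 13 members 7 (53.8%) carried H3K27ac and 7 (53.8%) carried H3K4me1, against 14.3% and 20.6% of all members. Carmn, the host of miR-143 and miR-145 in smooth muscle, had H3K27ac at 2.09, 2.17 and 2.33 and H3K4me1 at 1.51, 1.97 and 1.68. Mir17hg (chromosome 14) had H3K27ac at 1.54, 1.73 and 1.77 and H3K4me1 at 1.83, 1.81 and 1.90. Mir155hg, a host active in immune cells, had 1.90, 1.66 and 1.69 in H3K27ac and 1.95, 1.67 and 1.56 in H3K4me1. Mir133a-1hg, which hosts a microRNA of striated muscle, had H3K4me1 in 3 lists, at 1.56, 1.53 and 1.49, and no H3K27ac. Mir9-3hg and Mir124-2hg had no peak in any list, and Mir124a-1hg had 1 of H3K4me1, at 1.65.

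Mesenchymal lncRNAs were marked in part. Of 7 members, 4 (57.1%) carried H3K27ac and 5 (71.4%) carried H3K4me1, against 14.3% and 20.6% of all members. These were Dnm3os, Carmn, Bvht and Ptgs2os2 with both marks in every replicate, and Wt1os with H3K4me1 alone. Carmn and Bvht are neighbouring genes, so they may not be separate observations. Bvht, known from the cardiac lineage, had H3K27ac at 1.80, 2.07 and 2.17 and H3K4me1 at 2.04, 2.03 and 1.91. Ptgs2os2, which starts 64.6 kb from the prostaglandin synthase gene Ptgs2, had H3K27ac at 1.79, 1.68 and 1.80 and H3K4me1 at 1.63, 1.64 and 1.77. Wt1os had H3K4me1 at 1.45, 1.58 and 1.74. Hotair, of the HoxC cluster, and 2610035D17Rik had no peak in any list. Dnm3os and Carmn are members of this list and of the microRNA hosts.

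Neural and pluripotency lncRNAs mostly had no peak. Of 9 neural members, 6 had no peak in any list, among them Dlx1as, Pantr1 and Vax2os. The other members were Dlx6os1, with 1 H3K27ac peak of 1.35, Mir124a-1hg, with 1 H3K4me1 peak of 1.65, and Rmst. Rmst had H3K4me1 at 1.56, 1.50 and 1.59 and H3K27ac at 1.48 and 1.44 in replicates 1 and 3. Of 20 pluripotency members, 13 had no peak in any list, while 2 (Platr7 and Platr22) carried H3K27ac and 3 (Lncenc1, Platr22 and Platr26) carried H3K4me1 in at least 2 lists. These were 10.0% and 15%, near the 14.3% and 20.6% of all members. Of 4 blood members 3 (Gm19585, Gm2682 and Mir155hg) carried H3K27ac and 1 (Mir155hg) carried H3K4me1, which were 75% and 25%. Gm19585, 153 kb from Satb1, had H3K27ac at 1.44, 1.53 and 1.73. Gm2682 had it at 1.58 and 1.60 in replicates 1 and 2, and Ifngas1 had a single H3K27ac peak of 1.35. Over all members 59.6% had no peak in any list, so the neural share of 66.7% and the pluripotency share of 65% lay near that of lncRNA genes in general.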

How the data were processed

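Peak lists of 6 ChIC-seq libraries (H3K27ac and H3K4me1, n = 3 each) and 1 list per mark called by the authors on its 3 libraries together were analysed. Per the submitters' processing notes, reads were handled with cutadapt, Bowtie2 and MACS2 on GRCm38.p5. Per the file headers, the authors called broad peaks with MACS 2.2.7.1 at p-value cutoffs of 0.05 and 0.1 against IgG, on uniquely aligned, deduplicated read pairs, with the larger library scaled to the smaller. Among the 6 replicate lists, IgG replicate 1 was the control of H3K27ac replicate 1 alone and IgG replicate 3 that of the replicates numbered 3. IgG replicate 2 was that of the other replicate lists. The lists called on 3 libraries together used all 3 IgG libraries. The deposited pileup is a scaled coverage signal, the deposited fold enrichment is a ratio of pileup plus 1 over background plus 1, and the deposited −log10 p-value is a mean over the broad region. No read counts were tested, because a peak list holds only regions past these lenient cutoffs, and a region without a peak is not shown to lack the mark.

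Windows were built from GENCODE release 21 annotation, and sequences were read from GRCm38. A window of 1 kb either side was marked when any peak overlapped it. Groups of lists were compared by exact two-sided permutation tests, and classes of windows within lists by exact two-sided sign-flip tests, with Benjamini-Hochberg adjustment over 10 tests. Genes were named as members of fixed lists, as the 12 highest by median H3K27ac percentile, as the 8 and 5 highest with 1 mark in all 3 lists and the other in none, and as the 5 under the widest pooled H3K27ac peaks. The members and lists were chosen with earlier results of these data known. Alternatives covered window size, distance, overlap, peak strength, CpG limits, pooling, left-out replicates and a replicate block. Of the correlations between deviations of same-numbered lists (−0.0124, 0.135 and 0.246), 1 was below 0.1, so the numbers were not taken to pair the libraries. Python 3.11.15, numpy 2.4.6, pandas 2.3.3 and matplotlib 3.10.9 were used, and the overlap code was tested on simulated data.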

Additional observations from a re-analysis of the deposited data

Results flagged for a closer look

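The marks moved in opposite directions in 2 comparisons within lncRNA promoters. Starts inside coding gene bodies had H3K27ac at −1.16 percentage points relative to starts outside (lower in 3 of 3 lists) and H3K4me1 at 2.30 points (higher in 3 of 3). The difference between the marks was −3.46 points (exact permutation test, p = 0.100, the smallest possible). Spliced genes relative to single-exon genes had H3K27ac at −2.48 points and H3K4me1 at 2.94 points, each in 3 of 3 lists. The difference was −5.42 points (exact permutation test, p = 0.100, the smallest possible). The single-exon class held 273 genes.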

How the results depend on the processing

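Of 144 alternative values of 11 results, 112 were classed as unchanged, which does not measure how robust the results are. For the comparisons of 3 lists against 3 the smallest possible p was 0.100. No setting could therefore make them pass the threshold used for a call. The counts of genes had no sign or test, and 466 genes with both marks against 685 was still classed as unchanged. The difference between the marks at lncRNA genes was −11.1 points in the pooled lists, and from −1.21 (with a −log10 p-value limit of 1.3) to −7.08 (with a pileup limit) under the window, distance and peak settings. The difference of the start ratios relative to 8 to 10 kb away became −0.137 with 1 start per gene, 0.438 with the p-value limit and 0.180 with the pileup limit, and ranged from −0.0251 to 0.0722 with 1 replicate left out. The gene body difference became −0.413 with windows of 250 bp and −0.279 when peaks under a −log10 p-value of 1.3 were left out. The spliced difference became −0.535 with this peak filter and ranged from −0.695 to 0.852 with 1 replicate left out. The distance difference became 2.38 points with this filter and 2.84 with a pileup of at least 5 times the mean coverage. The count of genes with both marks became 317 with all 3 lists required, 369 with windows of 250 bp, 1123 with windows of 3 kb and 120 with this filter, and was 466 to 598 with 1 replicate left out. The cause of these changes was not tested, except that windows, lists and peak limits set by construction how many peaks can count.

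With 1 replicate left out, the exact sign-flip test over the remaining 5 lists cannot go below p = 0.0625. The differences then ranged from −26.8 to −23.9 points for lncRNA against coding genes, 26.5 to 31.0 for CpG-rich windows and −15.9 to −14.9 for testis clones. With the replicate block, which pairs lists by number, the differences between the marks were −4.45 points (exact p = 0.250), −0.185 for the ratio to coding genes (p = 0.250), 0.156 for the start over 2 kb downstream (p = 0.250) and 0.0275 for the start over 8 to 10 kb away (p = 0.750). None passed the threshold with or without the block, and none could, because 3 lists against 3 allow no p below 0.100. Treatment libraries were 11.3 to 25.2 times as deep as their controls, which limits how well the local background was measured. After adjustment none of the 10 tests passed 0.05, and 3 had an unadjusted exact p under 0.05.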
